A study of Homo sapiens with 9 samples.

Results

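The matrix metalloproteinases (MMPs), the ADAM and ADAMTS proteases and their tissue inhibitors, the TIMPs, were followed in ACC-MESO-1, a human cell line from malignant pleural mesothelioma, after infection with 1 of 2 short hairpin RNAs against the histone demethylase LSD1 (shLSD1 #1 and shLSD1 #2) or with a control shRNA. Members were chosen by gene symbol alone: MMP, ADAM or ADAMTS followed by a number, or TIMP1 to TIMP4. The rule found 62 genes, each read by a single transcript cluster of the Clariom S array, among 17709 clusters with a symbol and 21448 clusters in all. They are 59 proteases (22 MMP, 19 ADAM and 18 ADAMTS genes) and the 3 inhibitors TIMP1, TIMP3 and TIMP4, while TIMP2 was not analysed here. Each of the 3 groups had 3 arrays: replicates 4 to 6 carried shLSD1 #1, replicates 7 to 9 shLSD1 #2 and replicates 1 to 3 the control shRNA. All 9 arrays are of this single line, grown in the same serum-containing medium, and no agent other than the hairpins is named in the labels. The LSD1 transcript was not analysed here, so the depth of the knockdown was not checked.

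MMPs are zinc-dependent enzymes that cut collagens and other matrix proteins, some secreted and some anchored in the plasma membrane. ADAMs are membrane proteins, and those with an intact zinc site release the outer parts of growth factors, cytokines and adhesion molecules from the cell surface, while ADAMTSs are secreted and act on procollagens, proteoglycans and microfibrils. TIMPs bind the active site of these enzymes and block it, and mesothelial cells and fibroblasts lay down and remodel the pleural matrix with this system.

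Values are log2 signals summarised by the authors, and the 95th percentile of 612 negative control probes on each array, 6.93 to 7.54, was taken as background. By that measure 11 members were above background on all 9 arrays (TIMP1, TIMP3, MMP2, MMP14, MMP16, ADAM9, ADAM10, ADAM12, ADAM15, ADAM17 and ADAMTS6), 4 on some arrays (MMP3, ADAM19, ADAMTS2 and ADAMTS16) and 47 on none. The tests below are limma fits over all 21448 clusters with p-values adjusted by the Benjamini-Hochberg method, and a change counts as passed at an adjusted p under 0.05. The labels do not say that replicates are separate cultures, so each p measures the spread between arrays, which may be technical. Both hairpins were set against the same 3 control arrays.

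Several features of the whole series touch the results. The cells carried epithelial and some mesothelial transcripts. Of 12 mesothelial markers 4 were above background on all 9 arrays (KRT8, KRT18, KRT7 and MSLN), 4 on some arrays and 4 on none, CALB2 among the last. The list's mean signal per array was 8.47 to 8.61 with shLSD1 #1, 8.40 to 8.51 with shLSD1 #2 and 8.30 to 8.52 in control. With each hairpin 2 of the 12 passed as higher and 1 as lower (25%, against 15.8% of all clusters with shLSD1 #1 and 13.2% with shLSD1 #2). WT1 was at least 1.35-fold higher with shLSD1 #1 and at least 1.27-fold with shLSD1 #2, UPK3B at least 1.14-fold and at least 1.15-fold higher, with 2 of 3 shLSD1 #1 arrays above background, and MSLN fell by 0.85 on the log2 scale with shLSD1 #1 and by 0.95 with shLSD1 #2. PTPRC, CD14, CD3E and ITGAM among 6 leukocyte markers and all 5 endothelial markers stayed below background on all 9 arrays. The other 2 leukocyte markers were above background on all 9 arrays. Bacterial and phage spike-in transcripts divided the arrays into a class of high signal (11.18 to 11.38), which holds shLSD1 #2 replicates 7 and 9 and all control arrays, and a class of low signal (10.80 to 10.93), which holds shLSD1 #2 replicate 8 and all shLSD1 #1 arrays. The part of this class in the results was measured as far as the design allows, by taking it as a block. Since all shLSD1 #1 arrays are low and all control arrays high, the block estimates the class effect from shLSD1 #2 arrays alone, and its value for shLSD1 #1 is no separate check.

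With shLSD1 #1, 14 of the 62 members (22.6%) passed the test, 5 higher and 9 lower, against 15.8% of all clusters (7.85% higher and 7.94% lower). With shLSD1 #2, 16 members (25.8%) passed, 5 higher and 11 lower, against 13.2% of all clusters (6.56% higher and 6.63% lower). Proteases accounted for 12 of the calls with shLSD1 #1 (4 higher, 8 lower, 20.3% of the 59) and 14 with shLSD1 #2 (4 higher, 10 lower, 23.7%), and the inhibitors gave 1 higher and 1 lower call with each hairpin. The median log2 change over the members was 0.04 with shLSD1 #1, against 0.03 over all clusters, and 0.08 with shLSD1 #2, against 0.02.

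Both hairpins gave calls in the same direction for 12 members. TIMP3, MMP16 and ADAM19 were higher with both, and TIMP1, ADAM12, ADAM15, ADAM17, ADAMTS2, ADAMTS6, MMP1, MMP9 and MMP19 were lower with both, the last 3 at signals below background. Over all clusters 5.11% were higher and 5.32% lower with both hairpins. These 12 are among 14 members called with shLSD1 #1 and 16 called with shLSD1 #2. Among all clusters, 1096 were called higher and 1142 lower with both, of 3385 called with shLSD1 #1 and 2827 with shLSD1 #2. MMP13 and ADAMTS1 passed the test with shLSD1 #1 and not with shLSD1 #2, whereas ADAM10, ADAMTS16, MMP2 and MMP3 passed with shLSD1 #2 and not with shLSD1 #1, and 0 members were called in opposite directions. With the mean of the hairpins against control, 15 members passed, 5 higher and 10 lower, against 18.2% of all clusters (9.25% higher and 8.98% lower).

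**Figure D1:**
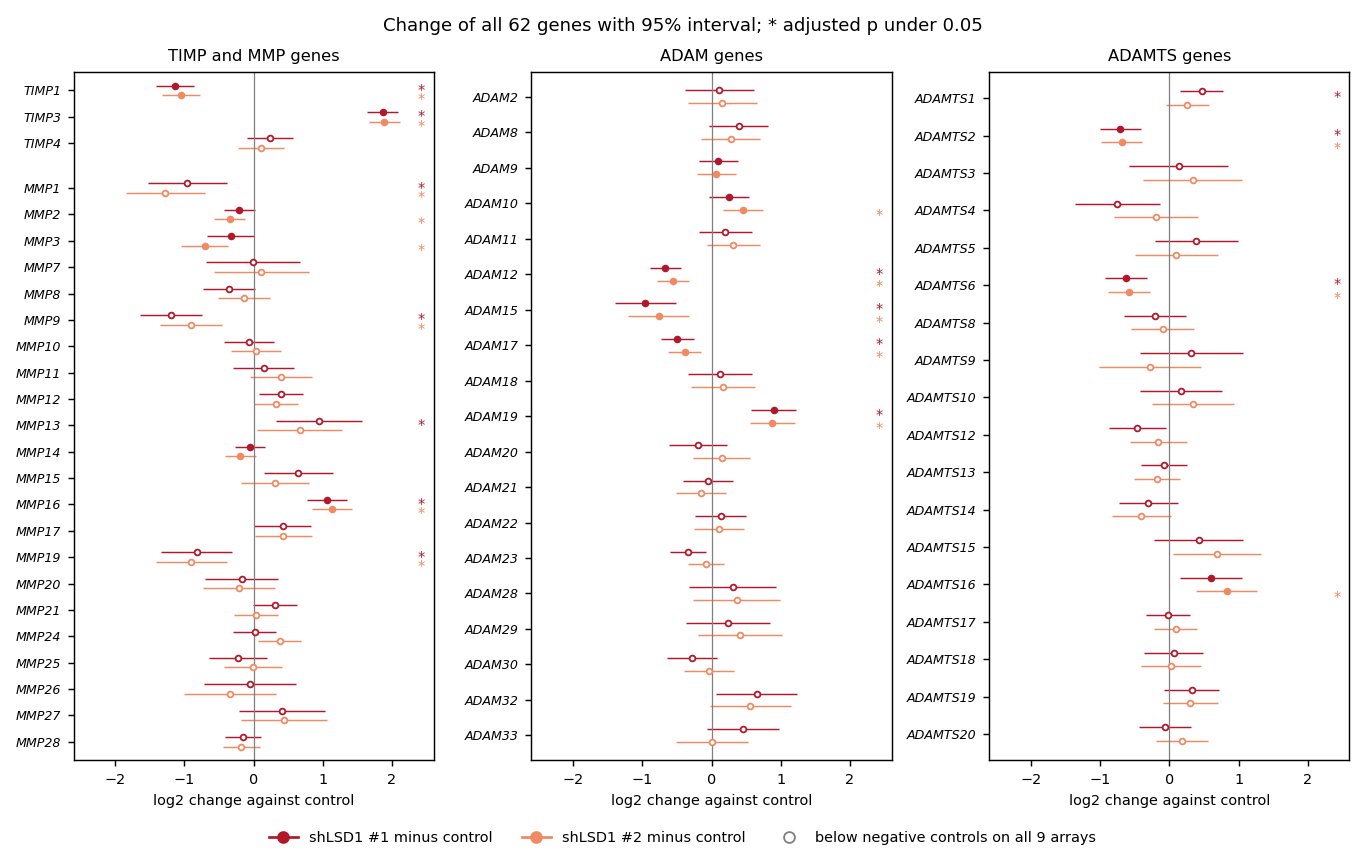
Log2 change of each of the 62 genes against control shRNA (x axis) with its 95% interval, for shLSD1 #1 and shLSD1 #2. Open circles are genes below the negative controls on all 9 arrays and asterisks mark an adjusted p under 0.05. TIMP3, MMP16 and ADAM19 lie to the right and TIMP1, ADAM12, ADAM15, ADAM17, ADAMTS2 and ADAMTS6 to the left with both hairpins, while most open circles have intervals that reach 0.

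The 2 detected inhibitors moved in opposite directions. Their promoters are shown because these genes gave the largest rise and the largest fall among members above background on all 9 arrays. The windows run from 250 bases before to 50 bases after the annotated start, read from RefSeq on GRCh38.p14, and capitals mark the GC box GGGCGG on either strand. TIMP3 is at chr22:32801455-32801754 on the plus strand and TIMP1 at chrX:47582186-47582485 on the plus strand.
TIMP3: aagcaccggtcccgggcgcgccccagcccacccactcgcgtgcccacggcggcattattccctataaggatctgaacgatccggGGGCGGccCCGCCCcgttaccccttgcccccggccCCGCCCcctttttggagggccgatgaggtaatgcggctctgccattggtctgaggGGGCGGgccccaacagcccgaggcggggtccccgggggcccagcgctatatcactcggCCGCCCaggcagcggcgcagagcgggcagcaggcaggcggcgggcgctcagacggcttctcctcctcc
TIMP1: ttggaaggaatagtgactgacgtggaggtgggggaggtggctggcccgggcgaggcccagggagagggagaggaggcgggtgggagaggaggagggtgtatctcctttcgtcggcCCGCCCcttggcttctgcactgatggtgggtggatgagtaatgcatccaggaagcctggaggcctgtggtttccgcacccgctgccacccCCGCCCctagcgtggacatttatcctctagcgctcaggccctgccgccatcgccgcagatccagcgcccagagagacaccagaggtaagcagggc

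The TIMP3 window held 5 GC boxes and 31 CpG dinucleotides, and the TIMP1 window 2 GC boxes and 16 CpGs. Over all 27305 RefSeq promoter windows the median was 14 CpGs (quartiles 3 and 28), and 44.6% held a GC box. A match is a description of the letters and not of a bound site.

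TIMP3, the inhibitor that stays bound to the extracellular matrix and blocks ADAM17 and several ADAMTSs as well as MMPs, rose with both hairpins. Its log2 signal was 13.31, 13.40 and 13.23 on the shLSD1 #1 arrays, 13.34, 13.34 and 13.34 on the shLSD1 #2 arrays, and 11.43, 11.42 and 11.51 on the control arrays. All 6 hairpin arrays lay above all 3 control arrays, and the arrays within each group were close to each other. The means were 13.31 ± 0.085 for shLSD1 #1, 13.34 ± 0.0044 for shLSD1 #2 and 11.45 ± 0.049 for control (SD, n = 3). The log2 rise was 1.86 ± 0.10 with shLSD1 #1 (SE, 3.63-fold, adjusted p = 5.03e-06) and 1.89 ± 0.10 with shLSD1 #2 (3.70-fold, adjusted p = 4.4e-06). By size of change this was rank 134 of 21448 clusters with shLSD1 #1 and rank 132 with shLSD1 #2.

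TIMP1, a soluble inhibitor of most MMPs that is induced in inflamed and remodelling tissue, fell with both hairpins. The signal was 15.01, 15.28 and 14.96 with shLSD1 #1, 15.17, 15.06 and 15.27 with shLSD1 #2, and 16.23, 16.28 and 16.15 in control. The hairpin and control arrays did not overlap. TIMP1 fell by 1.14 ± 0.12 on the log2 scale with shLSD1 #1 (SE, 2.20-fold lower, adjusted p = 0.000302) and by 1.05 ± 0.12 with shLSD1 #2 (2.07-fold lower, adjusted p = 0.0005). In the fit blocked on spike-in class, the TIMP1 change was -0.97 with shLSD1 #1 at adjusted p = 0.0761 and -0.997 with shLSD1 #2 at adjusted p = 0.00334.

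TIMP4, the inhibitor best known from heart muscle, was below background on all 9 arrays, with 5.48, 5.27 and 5.42 for shLSD1 #1, 5.22, 5.37 and 5.20 for shLSD1 #2 and 5.39, 4.86 and 5.22 for control. These signals overlapped, and TIMP4 passed the test with neither hairpin. Between the hairpins, TIMP3 differed by -0.03 (95% interval -0.25 to 0.20, shLSD1 #1 minus shLSD1 #2) and TIMP1 by -0.08 (-0.36 to 0.19).

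**Figure D2:**
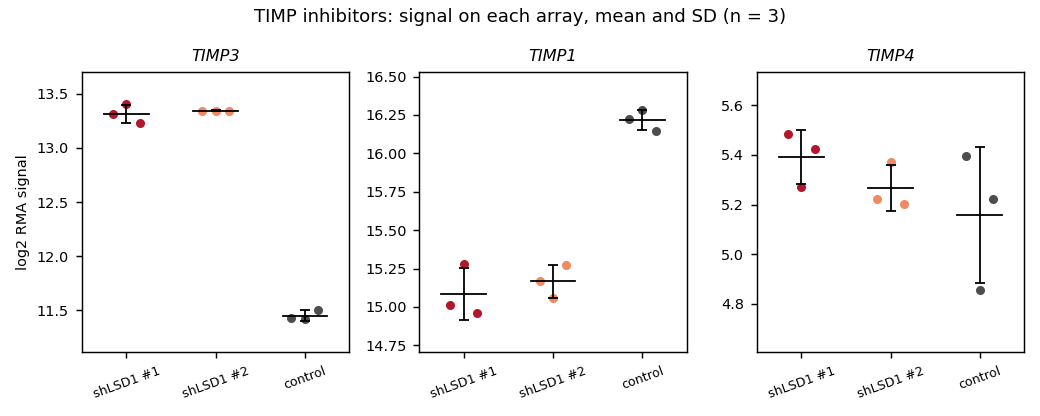
Log2 signal of TIMP3, TIMP1 and TIMP4 on each array (points) with the mean and SD of each group (bars, n = 3), for shLSD1 #1, shLSD1 #2 and control shRNA. The y axes differ and do not start at 0. TIMP3 lies at 13.23 or more on hairpin arrays and at 11.51 or less on control arrays, TIMP1 lies below control with both hairpins, and the TIMP4 points overlap.

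Among the membrane-type MMPs, MMP16 rose. MMP16, which encodes MT3-MMP, a membrane-anchored enzyme that can activate the MMP2 proenzyme, had signals of 11.79, 11.78 and 11.58 with shLSD1 #1, 11.81, 11.64 and 11.92 with shLSD1 #2, and 10.51, 10.68 and 10.80 in control. All hairpin arrays exceeded all control arrays. MMP16 rose by 1.05 ± 0.13 with shLSD1 #1 (SE, 2.08-fold, adjusted p = 0.000593) and by 1.13 ± 0.13 with shLSD1 #2 (2.19-fold, adjusted p = 0.000415). In the blocked fit the rise was 1.28 with shLSD1 #1 (adjusted p = 0.0302) and 1.21 with shLSD1 #2 (adjusted p = 0.00133).

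MMP14, which encodes MT1-MMP, the main cellular activator of MMP2, passed the test with neither hairpin. Its means were 13.77 ± 0.031 with shLSD1 #1, 13.62 ± 0.063 with shLSD1 #2 and 13.82 ± 0.033 in control (SD, n = 3). The differences from control were -0.05 with shLSD1 #1 (95% interval -0.27 to 0.17) and -0.19 with shLSD1 #2 (-0.41 to 0.03). The shLSD1 #2 arrays lay below all control arrays, while the shLSD1 #1 arrays overlapped them. MMP15, MMP17, MMP24 and MMP25, the other membrane-type genes on the array, were below background on all 9 arrays.

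MMP2, gelatinase A, cleaves denatured collagen and the type IV collagen of basement membranes. It read 15.43, 15.55 and 15.45 with shLSD1 #1, 15.38, 15.30 and 15.32 with shLSD1 #2 and 15.66, 15.69 and 15.69 in control. All hairpin arrays lay below control, by small amounts. The change was -0.35 ± 0.10 with shLSD1 #2 (1.27-fold lower, adjusted p = 0.0475) and -0.21 ± 0.10 with shLSD1 #1 (adjusted p = 0.200). The shLSD1 #2 call is close to the threshold and was lost under most alternatives, among them each omission of a single array.

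MMP3, stromelysin-1, which cuts proteoglycans and activates other MMP proenzymes, lay near background. Its signals were 7.02, 7.34 and 6.84 with shLSD1 #1, 6.56, 6.78 and 6.74 with shLSD1 #2 and 7.45, 7.50 and 7.25 in control. The negative controls were exceeded on 2 shLSD1 #1 arrays, 0 shLSD1 #2 arrays and 1 control array. MMP3 was called lower with shLSD1 #2 (adjusted p = 0.0126), and with shLSD1 #1 it did not pass (adjusted p = 0.173). No fold is given, because the control mean lay at the background level of the control arrays. With all values raised to the mean background level of the arrays, the shLSD1 #2 change was -0.15 and the call was lost (adjusted p = 0.305). Without control replicate 2, or without shLSD1 #2 replicate 7, it was lost as well.

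The remaining MMP calls came from signals below background on every array, so no fold is given. MMP1, the interstitial collagenase, averaged 5.96 ± 0.13 with shLSD1 #1, 5.64 ± 0.56 with shLSD1 #2 and 6.92 ± 0.26 in control (SD, n = 3), and was called lower with shLSD1 #1 (adjusted p = 0.0309) and with shLSD1 #2 (adjusted p = 0.00943). MMP9, gelatinase B, averaged 5.40 ± 0.19 with shLSD1 #1, 5.69 ± 0.17 with shLSD1 #2 and 6.59 ± 0.39 in control, and was called lower with shLSD1 #1 (adjusted p = 0.00331) and with shLSD1 #2 (adjusted p = 0.0157). MMP19, a secreted MMP also known as RASI-1, was called lower with shLSD1 #1 (adjusted p = 0.0376) and with shLSD1 #2 (adjusted p = 0.0293), and MMP13, collagenase-3, was called higher with shLSD1 #1 (adjusted p = 0.0464). With values raised to the mean background level of the arrays before the fit, none of these 4 genes was called with either hairpin. Among all clusters below background on all 9 arrays, 4.55% were called with shLSD1 #1 and 3.34% with shLSD1 #2, and of the 47 members there 5 were called with shLSD1 #1 (these 4 and ADAMTS1) and 3 with shLSD1 #2 (MMP1, MMP9 and MMP19).

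In the ADAM family 1 gene rose and 3 fell with both hairpins. The promoters of ADAM19, which rose, and ADAM12, which fell, are given on the same terms as above for the comparison within the family, at chr5:157575726-157576025 and chr10:126388428-126388727, each on the minus strand and written 5′ to 3′ along the gene.
ADAM19: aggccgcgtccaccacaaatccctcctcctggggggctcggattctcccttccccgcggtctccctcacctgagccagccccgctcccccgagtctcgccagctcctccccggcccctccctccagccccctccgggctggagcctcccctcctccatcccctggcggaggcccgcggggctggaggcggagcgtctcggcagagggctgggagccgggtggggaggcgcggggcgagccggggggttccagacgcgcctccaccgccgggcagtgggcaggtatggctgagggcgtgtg
ADAM12: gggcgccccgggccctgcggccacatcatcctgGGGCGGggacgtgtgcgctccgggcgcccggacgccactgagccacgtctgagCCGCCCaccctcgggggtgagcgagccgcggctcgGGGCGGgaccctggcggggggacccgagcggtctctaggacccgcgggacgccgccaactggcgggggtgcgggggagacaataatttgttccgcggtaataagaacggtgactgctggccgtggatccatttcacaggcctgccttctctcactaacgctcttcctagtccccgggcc

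The ADAM12 window held 3 GC boxes and 33 CpGs. The ADAM19 window held 26 CpGs and no match to any of the 6 motifs searched on both strands, which were AP-1 (TGANTCA), the GC box, the CArG box, a TEAD motif (GGAATG), the interferon-stimulated response element and the TATA box (TATAAA). The search covered the 37 members with a RefSeq window, of which 8 were called with both hairpins. MMP1, MMP9, MMP16 and MMP19, also called with both, had no window, nor had MMP3 and MMP13. Only exact matches were counted, so a site that differs from a motif by a single base was missed. AP-1 matched 4 of the 37 and 0 of the 8 (7.76% of all windows), the GC box 24 and 6, the TEAD motif 5 and 2 (14.0%) and the TATA box 8 and 0 (12.0%). The CArG box (1.29%) and the response element (3.65%) matched 0 of the 37.

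ADAM19, meltrin beta, which releases neuregulin in developing nerve and heart, was above background with the hairpins and below it in control. It read 8.09, 7.95 and 7.94 with shLSD1 #1, 7.86, 8.27 and 7.79 with shLSD1 #2 and 7.02, 7.20 and 7.05 in control. ADAM19 was at least 1.50-fold higher with shLSD1 #1 (adjusted p = 0.00263) and at least 1.48-fold higher with shLSD1 #2 (adjusted p = 0.00338). In the blocked fit the shLSD1 #1 difference in signal was 0.45 and did not pass (adjusted p = 0.338), whereas that of shLSD1 #2 was 0.73 (adjusted p = 0.00866).

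ADAM12, meltrin alpha, an enzyme of muscle, placenta and stromal cells that cuts insulin-like growth factor binding proteins, fell. Signals were 11.50, 11.59 and 11.47 with shLSD1 #1, 11.59, 11.62 and 11.70 with shLSD1 #2 and 12.19, 12.15 and 12.22 in control. The groups did not overlap. ADAM12 fell by 0.67 ± 0.10 with shLSD1 #1 (SE, 1.59-fold lower, adjusted p = 0.00194) and by 0.56 ± 0.10 with shLSD1 #2 (1.47-fold lower, adjusted p = 0.00583).

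ADAM17, the tumour necrosis factor converting enzyme, which also frees several ligands of the epidermal growth factor receptor, fell as well. It read 11.98, 11.94 and 11.90 with shLSD1 #1, 12.04, 11.95 and 12.18 with shLSD1 #2 and 12.38, 12.47 and 12.47 in control, with no overlap between hairpin and control arrays. ADAM17 fell by 0.50 ± 0.11 with shLSD1 #1 (SE, 1.41-fold lower, adjusted p = 0.012) and by 0.39 ± 0.11 with shLSD1 #2 (1.31-fold lower, adjusted p = 0.0427). The shLSD1 #2 call was lost with each omission of a single array other than replicate 9. The gene overlaps IAH1 in the annotation, and IAH1 passed the test with neither hairpin.

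ADAM15, metargidin, named for the integrin-binding sequence in its disintegrin domain, read 8.98, 8.61 and 8.59 with shLSD1 #1, 8.92, 8.83 and 9.004 with shLSD1 #2 and 9.32, 10.12 and 9.61 in control. The control arrays were the more scattered and lay above all hairpin arrays. ADAM15 fell by 0.95 ± 0.20 with shLSD1 #1 (SE, 1.94-fold lower, adjusted p = 0.0104) and by 0.76 ± 0.20 with shLSD1 #2 (1.70-fold lower, adjusted p = 0.0329). The shLSD1 #2 call was lost without control replicate 2 or 3 and without any 1 of the shLSD1 #2 arrays.

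ADAM10, the sheddase that starts Notch signalling and cleaves the amyloid precursor protein, was slightly higher. It read 13.50, 13.38 and 13.48 with shLSD1 #1, 13.50, 13.88 and 13.60 with shLSD1 #2 and 13.24, 13.06 and 13.30 in control. The change of 0.46 ± 0.13 with shLSD1 #2 passed the test (1.37-fold, adjusted p = 0.0467), that of 0.25 ± 0.13 with shLSD1 #1 did not (adjusted p = 0.239), and their difference of -0.21 (95% interval -0.50 to 0.09, shLSD1 #1 minus shLSD1 #2) did not pass. The shLSD1 #2 call was lost under most alternatives, and in the blocked fit the shLSD1 #1 change was -0.075. ADAM9, a sheddase widely made by epithelial cells, averaged 13.21 ± 0.21 with shLSD1 #1, 13.18 ± 0.064 with shLSD1 #2 and 13.11 ± 0.057 in control (SD, n = 3), with differences of 0.10 with shLSD1 #1 (95% interval -0.18 to 0.38) and 0.07 with shLSD1 #2 (-0.22 to 0.35). The 7 ADAMs that lack protease activity, such as ADAM22 and ADAM23, and 6 of the 12 with an intact zinc site were below background on all 9 arrays.

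Of the 18 ADAMTS genes, ADAMTS6 alone was above background on all 9 arrays. ADAMTS6, a secreted protease closely related to ADAMTS10, read 8.93, 9.29 and 8.99 with shLSD1 #1, 9.15, 8.95 and 9.23 with shLSD1 #2 and 9.73, 9.60 and 9.76 in control. The hairpin arrays all lay below control. ADAMTS6 fell by 0.62 ± 0.13 with shLSD1 #1 (SE, 1.54-fold lower, adjusted p = 0.0118) and by 0.58 ± 0.13 with shLSD1 #2 (1.50-fold lower, adjusted p = 0.0186). The shLSD1 #2 call was lost without control replicate 1 or 3 and without shLSD1 #2 replicate 8.

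ADAMTS2, which removes the N-propeptide of fibrillar procollagens, exceeded the negative controls on all 3 control arrays and on 1 array of each hairpin. It read 7.15, 7.14 and 6.997 with shLSD1 #1, 6.996, 7.16 and 7.19 with shLSD1 #2 and 7.59, 7.85 and 7.98 in control. ADAMTS2 was called lower with shLSD1 #1 (adjusted p = 0.00556) and with shLSD1 #2 (adjusted p = 0.00732). With all values raised to the mean background level of the arrays, the log2 change was -0.56 with each hairpin and both calls were kept (adjusted p = 0.0132 for shLSD1 #1 and 0.0154 for shLSD1 #2). ADAMTS3 and ADAMTS14, the other procollagen N-propeptidases, were below background on all 9 arrays.

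ADAMTS16, a relative of ADAMTS18, crossed background in the other direction. Its signals were 7.33, 7.08 and 6.82 with shLSD1 #1, 7.49, 7.19 and 7.21 with shLSD1 #2 and 6.67, 6.07 and 6.68 in control. The negative controls were exceeded on 1 shLSD1 #1 array, 3 shLSD1 #2 arrays and 0 control arrays. The test passed with shLSD1 #2 (adjusted p = 0.0233) and not with shLSD1 #1 (adjusted p = 0.0705), and no fold is given because the mean with shLSD1 #2 did not exceed the negative control level of the control arrays. The call was lost without control replicate 2 and without shLSD1 #2 replicate 7 or 8. It was also lost with all values raised to the mean background level of the arrays, where the log2 change was 0.08 (adjusted p = 0.881). ADAMTS1, a proteoglycan-cleaving enzyme, was called higher with shLSD1 #1 at adjusted p = 0.0483 from means of 3.48 ± 0.14 with shLSD1 #1, 3.28 ± 0.15 with shLSD1 #2 and 3.01 ± 0.17 in control (SD, n = 3), all below background, and no alternative that could be run kept this call.

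**Figure D3:**
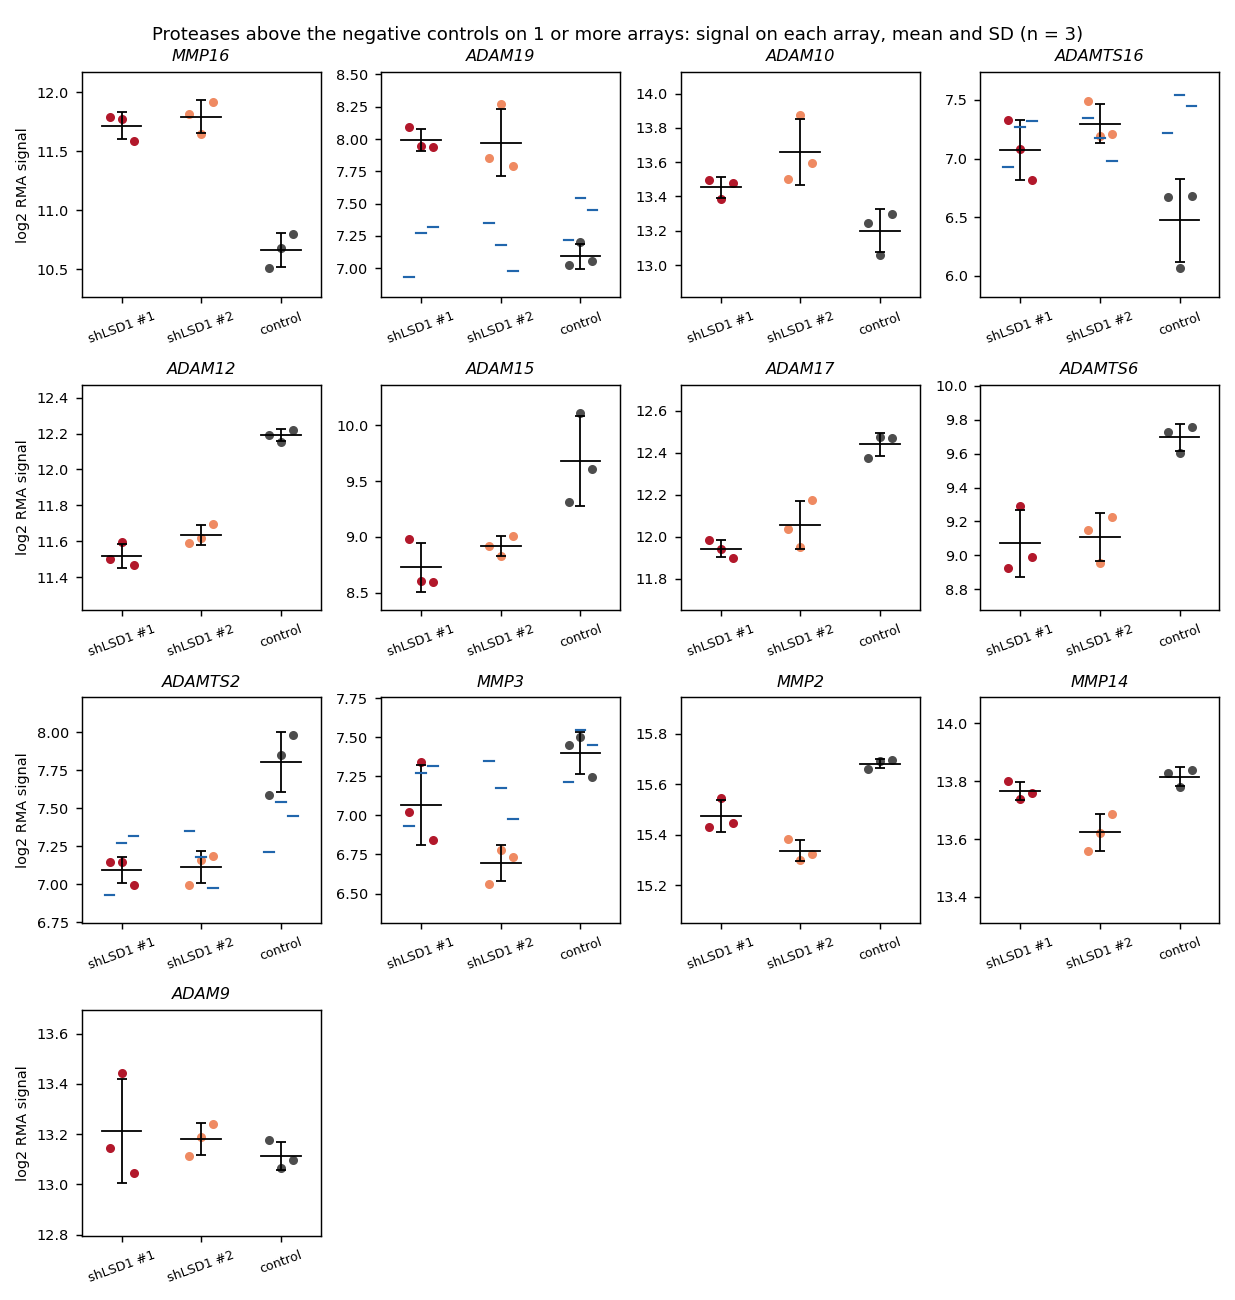
Log2 signal of the 13 proteases above the negative controls on 1 or more arrays, on each array (points), with the mean and SD of each group (bars, n = 3), for shLSD1 #1, shLSD1 #2 and control shRNA. Blue dashes are the 95th percentile of the negative controls on that array where it falls in view, and the y axes differ and do not start at 0. MMP16, ADAM19, ADAM10 and ADAMTS16 lie above control with both hairpins, ADAM12, ADAM15, ADAM17, ADAMTS2, ADAMTS6 and MMP2 lie below, and MMP3, MMP14 and ADAM9 overlap control with shLSD1 #1.

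A further 42 members were below background on all 9 arrays and called with neither hairpin. Their signals ran from 2.15 to 6.35. Among them are the neutrophil collagenase MMP8, the stromelysins MMP10 and MMP11, the matrilysins MMP7 and MMP26, the macrophage elastase MMP12, the aggrecanases ADAMTS4 and ADAMTS5, and ADAMTS13, which cuts von Willebrand factor. A signal below the negative controls does not show that the transcript is absent, and a change there was not measurable on these arrays.

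The hairpins were also set against each other. Of the 62 members 0 passed, and 0 of the 21448 clusters did (0%). At an unadjusted p under 0.05 limma listed 3 members (ADAM23, MMP24 and MMP3, named after their values were seen) and 1687 clusters, 7.87% of all. With a trended and robust prior 42 clusters passed, and 0 of them were members. Over the 11 members above background on all 9 arrays, the difference of shLSD1 #1 minus shLSD1 #2 ran from -0.21 to 0.14, with 95% intervals reaching from -0.64 to 0.36.

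The spike-in class changed how many member calls passed. With it as a block, 2 of the 14 shLSD1 #1 calls remained (TIMP3 and MMP16) and 8 of the 16 shLSD1 #2 calls (TIMP3, TIMP1, MMP16, ADAM19, ADAM12, ADAMTS2, MMP1 and MMP3). When the fit was restricted to the 5 high spike-in arrays, 6 of the 16 remained (TIMP3, TIMP1, MMP16, ADAM19, MMP1 and MMP3). Beside the block values of TIMP1 and ADAM19 given above, the lost shLSD1 #1 calls of members above background on 1 or more arrays had block values of -0.64 for ADAM12 (adjusted p = 0.145), -0.82 for ADAM15 (0.356), -0.34 for ADAM17 (0.463), -0.78 for ADAMTS2 (0.176) and -0.39 for ADAMTS6 (0.499). The direction was kept in each of them. The SE of the shLSD1 #1 change rose with the block, from 0.10 to 0.19 for ADAM12 and from 0.14 to 0.20 for ADAM19. Lower precision and an effect of the class were not told apart.

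**Figure D4:**
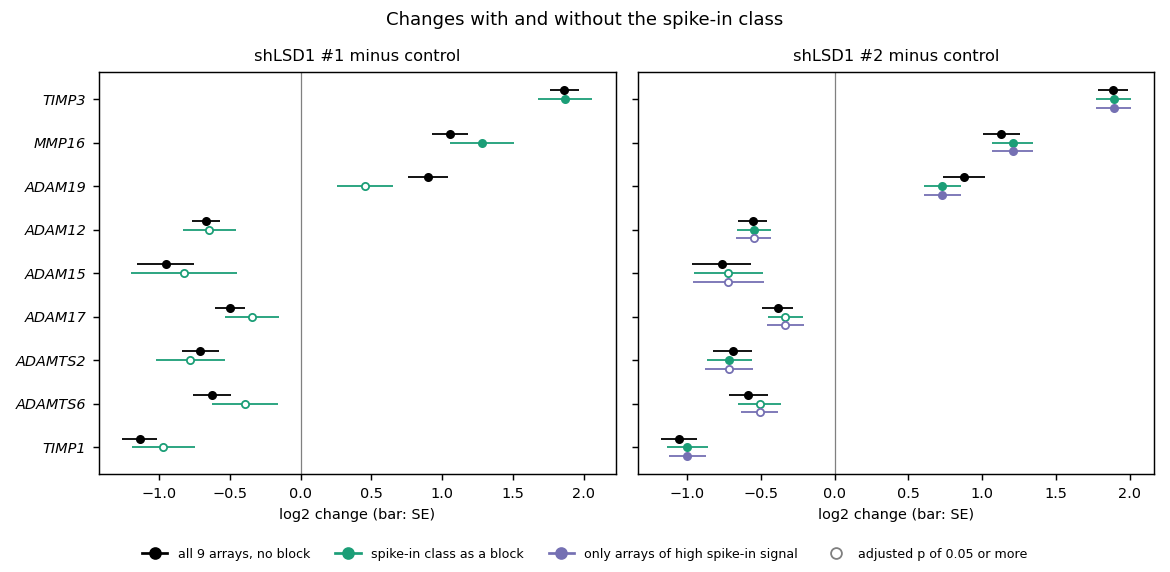
Log2 change against control (x axis, bar: SE) of 9 members for shLSD1 #1 and shLSD1 #2, fitted on all 9 arrays without a block, blocked on spike-in class and, for shLSD1 #2, on the high spike-in arrays alone. Open circles have an adjusted p of 0.05 or more. TIMP3 and MMP16 keep filled circles throughout, and for shLSD1 #1 all other genes become open with the block.

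Other genes of the system were counted in 6 lists. Of 8 regulators and inhibitors of MMPs other than TIMPs, 3 were higher and 1 lower with shLSD1 #1, and 2 higher and 2 lower with shLSD1 #2 (50% with each, against 15.8% of all clusters with shLSD1 #1 and 13.2% with shLSD1 #2), with median log2 changes of 0.06 with shLSD1 #1 and 0.07 with shLSD1 #2. A2M, alpha-2-macroglobulin, a secreted trap for proteases of all classes, read 14.46, 14.63 and 14.44 with shLSD1 #1, 14.60, 14.44 and 14.64 with shLSD1 #2 and 12.75, 12.73 and 12.61 in control. It rose by 1.81 ± 0.11 with shLSD1 #1 (SE, 3.51-fold, adjusted p = 1.25e-05) and by 1.86 ± 0.11 with shLSD1 #2 (3.64-fold, adjusted p = 8.93e-06). Its close relative PZP, the pregnancy zone protein, rose by 1.44 ± 0.11 with shLSD1 #1 and 1.32 ± 0.11 with shLSD1 #2, and cross-reading between these similar genes was not tested.

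SPOCK1, a matrix proteoglycan of the testican family, fell. It read 10.18, 10.25 and 9.95 with shLSD1 #1, 9.96, 10.17 and 10.37 with shLSD1 #2 and 11.98, 11.95 and 12.04 in control, a drop of 3.64-fold with shLSD1 #1 (adjusted p = 3.04e-05) and 3.54-fold with shLSD1 #2 (adjusted p = 3.37e-05). LRP1, the receptor that takes up proteases bound to inhibitors, fell by 0.82 ± 0.14 with shLSD1 #2 (adjusted p = 0.0042), while its change of -0.38 ± 0.14 with shLSD1 #1 did not pass (adjusted p = 0.0994). TFPI2, a serine protease inhibitor of the matrix, was called higher with shLSD1 #1 (adjusted p = 0.0016) from signals below background on all 9 arrays. Its shLSD1 #2 difference had the same direction and did not pass (adjusted p = 0.0593). The shLSD1 #1 call was lost in the blocked fit and with all values raised to the mean background level of the arrays. RECK, a membrane-anchored MMP inhibitor, differed from control by 0.12 with shLSD1 #1 (95% interval -0.18 to 0.42) and 0.19 with shLSD1 #2 (-0.11 to 0.50) and did not pass. BSG, the MMP inducer basigin, differed by 0.00 with shLSD1 #1 (-0.23 to 0.23) and -0.04 with shLSD1 #2 (-0.27 to 0.19) and did not pass.

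Of 12 genes that mature or traffic ADAM10 and ADAM17, 2 were lower and 0 higher with each hairpin (16.7%, against 15.8% of all clusters with shLSD1 #1 and 13.2% with shLSD1 #2, a share near the background), with medians of 0.05 with shLSD1 #1 and -0.06 with shLSD1 #2. TSPAN14, a tetraspanin that escorts ADAM10 to the cell surface, read 10.96, 11.15 and 11.05 with shLSD1 #1, 11.10, 11.16 and 11.08 with shLSD1 #2 and 12.18, 12.14 and 12.01 in control, 2.08-fold lower with shLSD1 #1 (adjusted p = 0.000202) and 1.99-fold lower with shLSD1 #2 (adjusted p = 0.000307). RHBDF2, or iRhom2, which brings ADAM17 to the surface, fell by 0.50 ± 0.15 with shLSD1 #1 (adjusted p = 0.0442) and by 0.54 ± 0.15 with shLSD1 #2 (adjusted p = 0.0375), calls that were lost under most alternatives. TSPAN15, another partner of ADAM10, differed from control by 0.35 with shLSD1 #1 (adjusted p = 0.178) and 0.51 with shLSD1 #2 (adjusted p = 0.0632). FURIN, which removes the prodomains of many of these proteases, differed by 0.32 with shLSD1 #1 (adjusted p = 0.50) and 0.30 with shLSD1 #2 (adjusted p = 0.565).

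Of 16 substrates of ADAM10 and ADAM17, 4 were higher and 1 lower with each hairpin (31.2%, against 15.8% of all clusters with shLSD1 #1 and 13.2% with shLSD1 #2), with medians of 0.27 with shLSD1 #1 and 0.21 with shLSD1 #2. HBEGF, a growth factor released from the membrane by ADAM17, read 9.33, 9.41 and 9.40 with shLSD1 #1, 9.60, 9.49 and 9.63 with shLSD1 #2 and 7.46, 7.74 and 7.32 in control, where 2 of 3 arrays exceeded the negative controls. It rose 3.67-fold with shLSD1 #1 (adjusted p = 2.03e-05) and 4.20-fold with shLSD1 #2 (adjusted p = 1e-05). The adhesion molecules L1CAM and ALCAM and the proteoglycan SDC1 rose by 0.79, 0.55 and 0.84 on the log2 scale with shLSD1 #1 and by 0.96, 0.60 and 0.85 with shLSD1 #2. CXCL16, a chemokine anchored in the membrane, changed by -1.10 ± 0.19 with shLSD1 #1 (adjusted p = 0.00448) and by -1.42 ± 0.19 with shLSD1 #2 (adjusted p = 0.00119). In the blocked fit, the shLSD1 #1 calls of L1CAM, ALCAM, SDC1 and CXCL16 were lost and their shLSD1 #2 calls remained. The blocked shLSD1 #1 change was 0.998 for L1CAM (adjusted p = 0.174), 0.52 for ALCAM (0.240), 0.99 for SDC1 (0.142) and -0.60 for CXCL16 (0.415), so that the block lowered the size of the CXCL16 change and raised those of L1CAM and SDC1.

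Of 7 astacin proteases and enhancers, 2 were lower and 0 higher with each hairpin (28.6%, against 15.8% of all clusters with shLSD1 #1 and 13.2% with shLSD1 #2). The list medians were -0.29 with shLSD1 #1 and -0.40 with shLSD1 #2. PCOLCE, which speeds the removal of procollagen C-propeptides, read 13.36, 13.42 and 13.28 with shLSD1 #1, 13.33, 13.46 and 13.64 with shLSD1 #2 and 14.42, 14.53 and 14.63 in control, 2.25-fold lower with shLSD1 #1 (adjusted p = 0.000225) and 2.06-fold lower with shLSD1 #2 (adjusted p = 0.00046). BMP1, the protease it assists, fell by 0.51 ± 0.13 with shLSD1 #1 and by 0.57 ± 0.13 with shLSD1 #2, and both calls were lost without control replicate 1 or 3. Of 8 ADAMTS substrates FBN1, the microfibril protein fibrillin-1, fell by 0.48 ± 0.12 with shLSD1 #2 (adjusted p = 0.0235). That is 12.5% of the list, against 13.2% of all clusters. None passed with shLSD1 #1, against 15.8% of all clusters. The list medians were 0.14 for shLSD1 #1 and 0.02 for shLSD1 #2. Of 7 genes in the list of ADAMTS-like genes and papilin, 0 passed with either hairpin. In limma 1 with each had an unadjusted p under 0.05, against 29.1% of all clusters with shLSD1 #1 and 26% with shLSD1 #2. The medians were -0.0045 for shLSD1 #1 and 0.08 for shLSD1 #2.

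**Figure D5:**
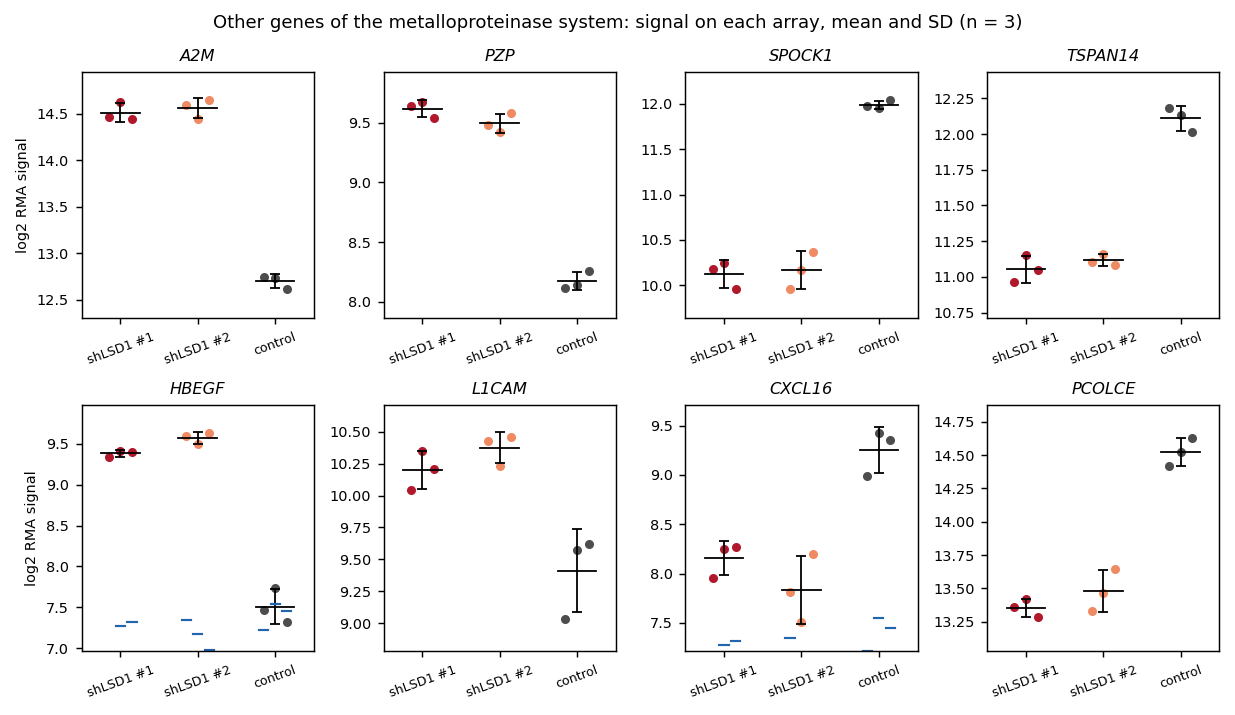
Log2 signal of A2M, PZP, SPOCK1, TSPAN14, HBEGF, L1CAM, CXCL16 and PCOLCE on each array (points) with the mean and SD of each group (bars, n = 3), for shLSD1 #1, shLSD1 #2 and control shRNA. Blue dashes are the 95th percentile of the negative controls where it falls in view, and the y axes differ and do not start at 0. A2M, PZP, HBEGF and L1CAM lie above control with both hairpins and SPOCK1, TSPAN14, CXCL16 and PCOLCE below it.

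Stromal genes, which often carry MMP and TIMP expression in tissue, moved in both directions. With each hairpin 2 of 7 stromal markers passed as higher and 1 as lower. That is 42.9%, against 15.8% of all clusters with shLSD1 #1 and 13.2% with shLSD1 #2. Of 7 fibroblast and stromal markers on the array, LUM rose with both hairpins (adjusted p = 6.97e-05 for shLSD1 #1 and 6.43e-05 for shLSD1 #2), with means of 9.58 ± 0.27 with shLSD1 #1, 9.60 ± 0.13 with shLSD1 #2 and 7.39 ± 0.31 in control (SD, n = 3), where 1 of 3 arrays exceeded background. COL1A2 rose by 0.82 on the log2 scale with shLSD1 #1 and by 0.59 with shLSD1 #2, and THY1 fell by 1.68 with shLSD1 #1 and by 1.64 with shLSD1 #2. COL1A1, PDGFRA and DCN were below background on all 9 arrays. The list's mean signal per array was 8.37 to 8.41 with shLSD1 #1, 8.41 with shLSD1 #2 and 7.98 to 8.19 in control, and its part in the member changes was not tested. The leukocyte list averaged 6.24 to 6.42 with shLSD1 #1, 5.96 to 6.45 with shLSD1 #2 and 6.38 to 6.56 in control, and CD68 changed by -1.11 with shLSD1 #1 and -1.35 with shLSD1 #2. The endothelial list averaged 3.93 to 4.27 with shLSD1 #1, 3.98 to 4.02 with shLSD1 #2 and 3.78 to 4.03 in control. In bulk RNA of this single line, fewer cells carrying a transcript and less of it per cell cannot be told apart.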

How the data were processed

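A total of 9 RNA samples of ACC-MESO-1 were hybridised to 1-colour Clariom S arrays. The deposited values are log2 signals made by the authors for each transcript cluster with RMA in Affymetrix Expression Console 1.4, per the submitters' processing notes, and the base 2 was taken as the RMA default. Library files and options: not given in the sources used here. RMA as usually run includes quantile normalization, so an overall shift between arrays would not be seen. Of 24351 probe sets, 2903 control probe sets were set aside and 21448 clusters tested without a filter. Gene symbols came from the array annotation, and all 62 member symbols matched RefSeq (GRCh38.p14).

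limma 3.58.1 (R 4.3.3) fitted lmFit and eBayes to the 3 groups on all 9 arrays, two-sided, with Benjamini-Hochberg adjustment over 21448 clusters and a threshold of 0.05. The procedure was tested on simulated data. Where a group lay below the 95th percentile of 612 negative control probe sets on all its arrays, the fold is a lower bound. It was taken between the mean percentile of that group's arrays and the mean signal of the other group. No fold is given where both groups lay below, or where the other group's mean did not exceed that percentile. MMP3 was given none for the reason stated with it. The number of arrays limits the precision. Figures were drawn with matplotlib 3.10.9.

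Named members were those called with a hairpin or with the mean of both, the TIMPs and those above the negative controls on all 9 arrays, and from each list up to 5 genes called with both hairpins together with RECK, BSG, RHBDF2, TSPAN15 and FURIN. LRP1, TFPI2 and FBN1 were added as single calls of 1 hairpin, after their values were seen. The members, lists, tests and spike-in classes were chosen with earlier results of these data known.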

Additional observations from a re-analysis of the deposited data

How the results depend on the processing

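Alternatives were quantile normalization repeated, array medians subtracted, cyclic loess, the third of clusters of lowest mean left out, values raised to the negative controls (7.25), a trended and robust prior, array weights, only the groups compared, the spike-in class as a block or only arrays of high spike-in signal, and each array left out. Members called with shLSD1 #1 numbered 2 with the block and 10 to 14 without single arrays (14 as reported). With shLSD1 #2 they numbered 10 with values raised to the negative controls, 8 with the block, 6 on arrays of high spike-in signal and 8 to 13 without single arrays, with 10 without control replicate 3, 9 without shLSD1 #2 replicate 7 and 8 without replicate 8 (16 as reported). For shLSD1 #2 the block and the omission of replicate 8 gave the same calls and are not separate checks. With the mean of the hairpins, members called numbered 5 with the block and 13 to 17 without single arrays (15 as reported). Over all clusters, 399 were called with shLSD1 #1 with the block (2375 to 3275 without single arrays, 3385 as reported), 1450 with shLSD1 #2 on arrays of high spike-in signal (1918 to 2710, 2827 as reported), 1225 with the mean with the block (2638 to 3800, 3912 as reported) and 42 between hairpins with the trended prior (0 as reported). The cause was not tested, except that single omissions leave fewer arrays. Some uncalled changes near 0 turned sign: ADAM10 with shLSD1 #1 to -0.075 with the block, ADAM9 with shLSD1 #1 to -0.017 without replicate 5 (0.18 at most, without replicate 6), MMP14 with shLSD1 #1 to 0.014 after a second quantile normalization, TIMP4 with shLSD1 #2 to -0.042 without control replicate 2 (0.23 at most, without control replicate 1), and RECK with shLSD1 #1 to -0.17 with the block. BSG with shLSD1 #1 turned to -0.017 with medians subtracted and ran from -0.015 to 0.018 without single arrays, and with shLSD1 #2 to 0.037 after a second quantile normalization and 0.0094 with the block, on arrays of high spike-in signal and without replicate 8 (-0.092 at least, without replicate 9). Of 771 alternative values for 21 members, 633 kept direction and side of the threshold, 129 kept direction and lost the call, 5 gained one and 4 turned sign. TIMP3 and MMP16 kept both calls under every alternative run, TIMP1 and ADAM19 under all but the block for shLSD1 #1. No member had a second cluster, so that alternative gave no value. No paired analysis was possible because the groups share no replicate number. Signals below the negative controls limit 47 of the 62 members.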

Other observations

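In the RefSeq annotation of GRCh38.p14 the 3 TIMP genes each lie inside a synapsin gene, TIMP1 in SYN1, TIMP3 in SYN3 and TIMP4 in SYN2, and the synapsins, which coat synaptic vesicles in neurons, were below background on all 9 arrays. SYN3 averaged 5.38 ± 0.37 with shLSD1 #1, 5.08 ± 0.48 with shLSD1 #2 and 5.36 ± 0.051 in control (SD, n = 3), with adjusted p = 0.975 for shLSD1 #1 and 0.530 for shLSD1 #2, while TIMP3 inside it rose with both hairpins. SYN1 averaged 5.12 ± 0.39 with shLSD1 #1, 4.52 ± 0.31 with shLSD1 #2 and 5.43 ± 0.097 in control, and was called lower with shLSD1 #2 (adjusted p = 0.0204) and not with shLSD1 #1 (adjusted p = 0.379). A total of 9 MMP genes stand next to each other on chromosome 11 (MMP7, MMP20, MMP27, MMP8, MMP10, MMP1, MMP3, MMP12 and MMP13), of which MMP1 was called lower with both hairpins, MMP3 lower with shLSD1 #2 and MMP13 higher with shLSD1 #1, each at signals near or below background, and the other 6 were called with neither hairpin.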
